A study of Mus musculus with 12 samples.

Results

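The comparison described here sets the livers of mice that drank both aspartame (ASP) and monosodium glutamate (MSG) on a trans fat (TFA) diet against the livers of mice on the TFA diet alone. It rests on 6 of the 12 liver arrays of the series, 3 of the ASP + MSG + TFA diet and 3 of the TFA diet, and each array was hybridised with RNA pooled from 5 male C57Bl/6J mice killed at 20 weeks of age after an overnight fast. The TFA controls were not on normal chow. Mice of all 4 diets ate chow in which shortening made up 20% and trans fat 8.68% by weight, so that the trans fat was shared by every array and the comparison measured what both additives added to it. ASP was given at 0.25 g/L and MSG at 0.75 g/L in the drinking water. Dams were put on their diets at 6 weeks of age and bred after 3 weeks, so that exposure of the offspring started in utero, and the offspring were weaned at 4 weeks onto the diet of the dam. A pool averages its animals, and whether pools of a diet shared litters is not given in the sources used here.

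Liver handles dietary fat through nuclear receptors of the PPAR family, and through SREBP factors that switch on sterol and fatty acid synthesis. It also stores glycogen and clears drugs, and the levels of several of its drug-metabolising enzymes differ between the sexes. Growth factors and stress switch on a separate set of immediate early and growth response genes within minutes to hours, among them Myc, Junb, Egr1 and the Gadd45 and Btg families, and many of them are short-lived transcripts. In whole liver RNA, fewer cells of a type and less RNA per cell cannot be told apart.

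The files held 20422 genes with at least 1 probe set assigned to them alone, with a median of 8 probe sets a gene, and 2290 of the genes rested on 1 probe set. The 6 arrays correlated with each other at 0.988 to 0.994 over all genes. The mean log2 intensity of 18 hepatocyte markers lay between 12.89 and 12.98 in every pool, as the liver label asks, and albumin (Alb) differed by 0.10 between the diets. Transcripts of other tissues were unequal between pools. The mean of 16 pancreatic acinar markers was 6.19, 7.43 and 7.49 in the TFA pools and 7.93, 8.24 and 6.25 in the ASP + MSG + TFA pools, so that the diets overlapped but the ASP + MSG + TFA diet had 14 of 16 markers higher on average, with a median log2 fold change of 0.48. The mean of 18 skeletal muscle markers was 6.59, 7.06 and 6.86 in the TFA pools and 6.16, 6.45 and 6.06 in the ASP + MSG + TFA pools, without overlap, and all 18 were lower on average, with a median of -0.58. Their part in the results was not tested beyond the fits named beside them. Fits with the muscle mean cannot fully separate it from the diet, because that mean did not overlap between the diets.

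**Figure D1:**
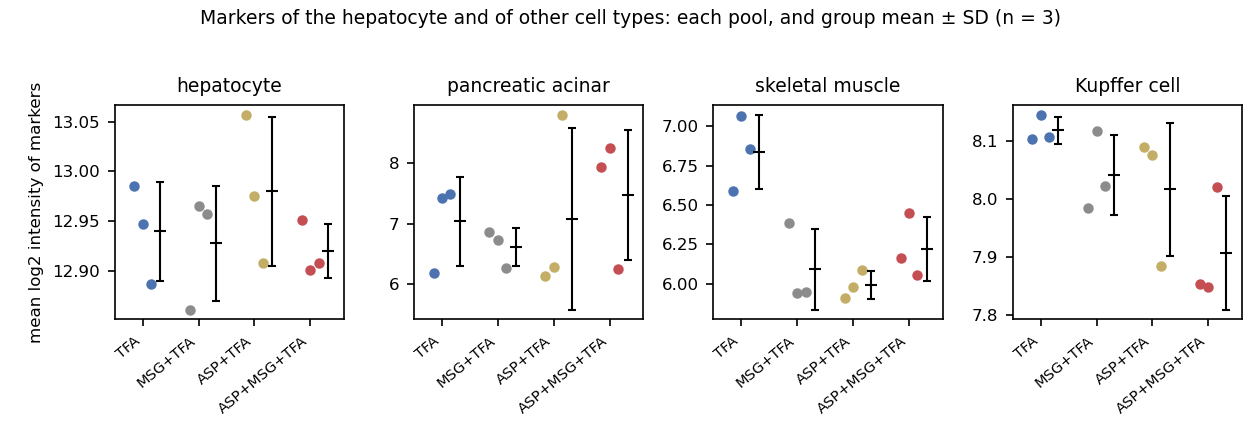
Mean log2 intensity (vertical axis) of the markers of 4 cell types in each of the 12 pools, by diet (horizontal axis). Coloured points are pools and black bars are the group mean ± SD (n = 3). Muscle markers were highest in the TFA pools, acinar markers varied by more than 1 log2 unit within each diet except MSG + TFA, and hepatocyte markers stayed within 12.86 and 13.06.

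Of the 20422 genes, at an adjusted p below 0.05, 0 rose with both additives (0% of those tested) and 8 fell (0.0392%). A log2 fold change above 0 was found for 52.2% of genes. At an unadjusted p under 0.05 the counts were 1159 higher (5.68%) and 895 lower (4.38%), and these shares are the background for each list below. The 3 ASP + MSG + TFA pools lay above all 3 TFA pools for 10% of genes and below them for 7.9%. The median log2 fold change of all genes was 0.01, the middle 50% lay between -0.08 and 0.10, and the typical standard error was 0.10. The genes that fell were Myc, Foxq1 and Gadd45g, a guanylate-binding protein gene listed as EG634650, and 4 gene models listed as Gm8936, Gm8109, Gm4838 and Gm12026.

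**Figure D2:**
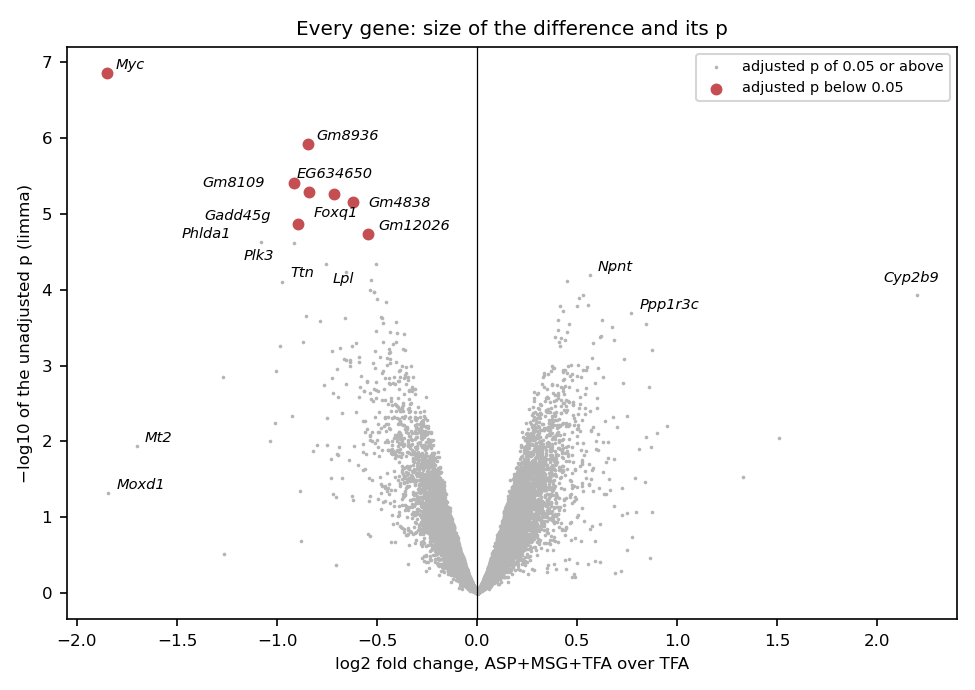
Log2 fold change of ASP + MSG + TFA over TFA (horizontal axis) against -log10 of the unadjusted limma p (vertical axis), 1 point for each of the 20422 genes. Red points are the 8 genes with an adjusted p below 0.05, all of which lie left of 0, and grey points are all other genes, Cyp2b9 at 2.20 among them.

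Myc, the transcription factor that drives growth and ribosome synthesis, fell the most of the 8. Its log2 intensity was 8.39, 8.64 and 8.33 in the TFA pools and 6.56, 6.47 and 6.79 in the ASP + MSG + TFA pools. Every pool with both additives lay more than 1 log2 unit below every control pool. The log2 fold change was -1.85 (95% interval -2.26 to -1.44, limma adjusted p = 0.00283, n = 3 and 3), which left 0.277 of the TFA level. All 3 probe sets of Myc were lower, by -2.26 to -1.32 on the log2 scale. The call held when any 1 of the 12 arrays was left out, and was lost without the 3 pools richest in acinar transcripts, which leaves pool 3 as the only one with both additives (adjusted p = 0.0995, log2 fold change -1.67), with an ordinary linear model in place of limma's moderated one (adjusted p = 0.186) and when the mean of the muscle markers was put in the model (adjusted p = 0.0512, log2 fold change -2.14).

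Foxq1, a forkhead factor that is induced in liver by stress and nutrients, was at 7.56, 7.65 and 7.77 in the TFA pools and at 6.83, 6.88 and 7.13 in the ASP + MSG + TFA pools. The pools did not overlap, and the log2 fold change was -0.71 (SE 0.10, adjusted p = 0.0222). Its 2 probe sets were unequal, at -1.35 and -0.07. Gadd45g, which codes for a small stress sensor that slows the cell cycle, was at 8.34, 8.63 and 8.43 in the controls and at 7.54, 7.51 and 7.67 with both additives, a log2 fold change of -0.89 (SE 0.14, adjusted p = 0.0397). All 3 pools with both additives were again below all controls, and 3 of its 4 probe sets were lower while the other was at 0.02. Without each array in turn, Foxq1 passed in 7 of 12 fits (adjusted p up to 0.126) and Gadd45g in 3 of 12 (up to 0.175). With the median of its probe sets in place of the mean, Foxq1 had an adjusted p of 0.0958 and Gadd45g one of 0.134.

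Phlda1 and Plk3 stood just outside the threshold, each with an adjusted p of 0.05004. Phlda1, a growth factor-induced gene whose product restrains cell survival and growth signalling, was at 9.06, 9.39 and 9.44 in the TFA pools and at 7.97, 8.15 and 8.51 in the ASP + MSG + TFA pools, a log2 fold change of -1.08 (SE 0.17). Plk3, a stress-responsive polo-like kinase, was at 10.12, 10.24 and 9.86 in the TFA pools and at 9.32, 8.83 and 9.32 in the ASP + MSG + TFA pools, a log2 fold change of -0.92 (SE 0.15), with 15 of 16 probe sets lower. Neither gene overlapped between the diets.

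**Figure D3:**
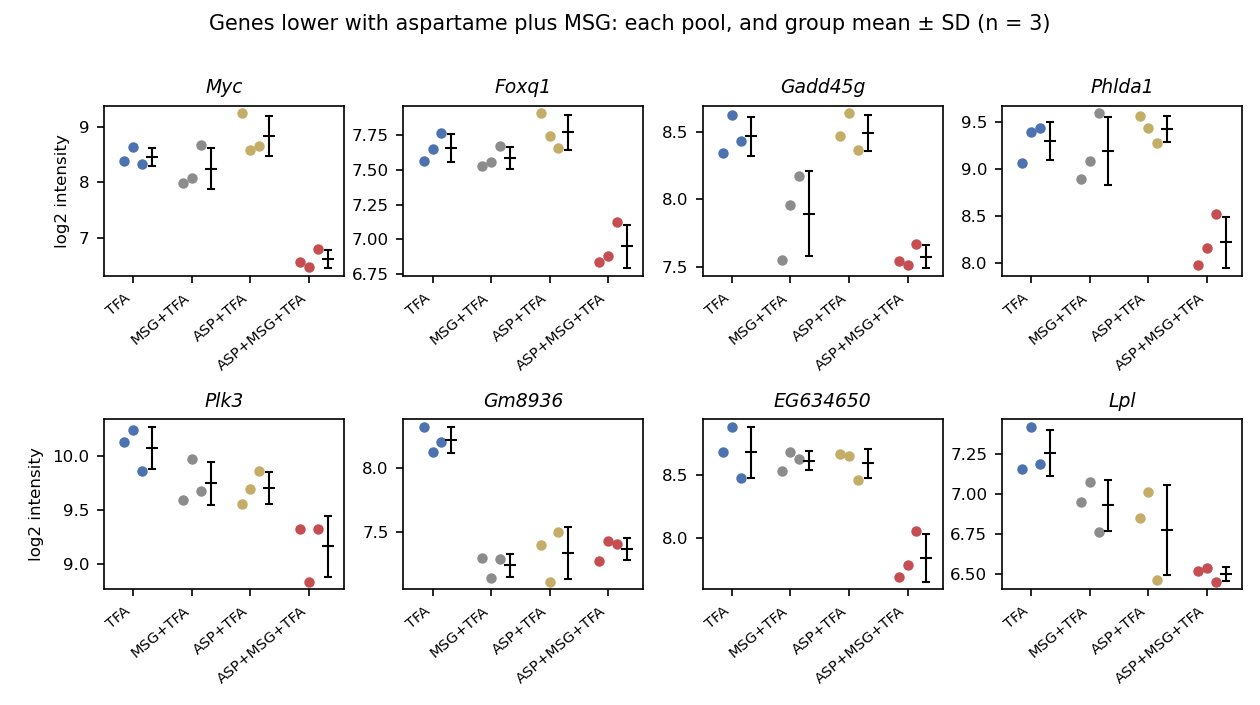
Log2 intensity (vertical axes) in each of the 12 pools, by diet (horizontal axes), of 8 of the genes with the smallest p among those lower with both additives. Coloured points are pools and black bars the group mean ± SD (n = 3). Myc, Foxq1, Phlda1 and EG634650 were low in the ASP + MSG + TFA pools, while Gm8936 was low in all 3 diets with an additive.

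In the immediate early and growth response list, more members were lower than higher. Of its 48 measured genes, 28 had a negative and 20 a positive log2 fold change, the median was -0.05, 3 fell, and at the unadjusted threshold 12 were lower and 5 higher, against 4.38% and 5.68% of all genes. Besides the genes above, the AP-1 subunits Junb (6.93, 7.16 and 6.83 against 6.61, 6.48 and 6.41) and Fosl2 had log2 fold changes of -0.47 and -0.46, the anti-proliferative gene Btg2 (8.77, 9.12 and 8.91 against 8.50, 8.41 and 8.47) one of -0.47, and Ier2 and the zinc finger factor Egr1 ones of -0.26 and -0.49, with adjusted p values of 0.137 or more. Junb, Btg2, Fosl2 and Ier2 were lower in every pool with both additives than in every control pool. In the other direction were Gadd45b (0.40), the phosphatase Dusp1 (0.30) and the orphan receptor Nr4a1 (0.35), whose pools overlapped. Fosl2, Ier2, Egr1, Gadd45b, Dusp1 and Nr4a1 were chosen after their values were seen.

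The start regions of the lower growth response genes are shown because Gadd45g fell and every pool with both additives lay below the controls for Plk3 and Btg2, each with 250 bases before the start and 50 after it. RefSeq start regions in GRCm38.p6 were at hand for 36 of the 48 genes, Gadd45g, Plk3 and Btg2 among them. Capitals mark in Gadd45g an E-box (CACGTG, 142 bases before the start) and a TATA box (TATAAA, 27 before), in Plk3 a GC box (GGGCGG, 78 before) and in Btg2 a cAMP response element (TGACGTCA, 166 before). Each motif was searched on both strands. Only the matches named here are in capitals. Other matches were left in lower case, such as the letters GGGCGG in Btg2 and CCAAT in Btg2 and Gadd45g.
Gadd45g, chr13:51846425-51846724, + strand: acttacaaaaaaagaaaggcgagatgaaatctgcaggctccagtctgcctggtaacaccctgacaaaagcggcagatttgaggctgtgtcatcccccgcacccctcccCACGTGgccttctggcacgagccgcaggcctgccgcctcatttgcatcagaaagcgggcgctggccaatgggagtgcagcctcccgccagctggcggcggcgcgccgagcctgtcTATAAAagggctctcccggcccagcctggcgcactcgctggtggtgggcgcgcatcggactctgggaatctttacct
Plk3, chr4:117133914-117134213, - strand: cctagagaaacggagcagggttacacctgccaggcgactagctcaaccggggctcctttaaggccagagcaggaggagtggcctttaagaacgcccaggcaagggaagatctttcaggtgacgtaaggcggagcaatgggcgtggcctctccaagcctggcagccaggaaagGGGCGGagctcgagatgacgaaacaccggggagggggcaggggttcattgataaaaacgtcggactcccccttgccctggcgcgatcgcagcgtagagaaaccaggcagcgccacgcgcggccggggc
Btg2, chr1:134079106-134079405, - strand: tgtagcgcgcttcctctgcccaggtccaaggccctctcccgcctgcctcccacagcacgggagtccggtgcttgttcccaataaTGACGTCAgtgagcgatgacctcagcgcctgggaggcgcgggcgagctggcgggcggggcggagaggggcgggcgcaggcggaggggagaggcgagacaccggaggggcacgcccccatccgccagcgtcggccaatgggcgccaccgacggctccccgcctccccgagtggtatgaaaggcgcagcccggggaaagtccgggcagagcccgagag
An E-box was found in 9 of the 36 genes with a start region (25%), against 8.09% of 27025 genes, a TATA box in 12 (33.3% against 15.7%), a GC box in 30 (83.3% against 38.2%) and a cAMP response element in 5 (13.9% against 2.03%). The 5 genes with a cAMP response element did not share a direction. Of them 3 were negative, such as Btg2 at -0.47 and Errfi1 at -0.17, and the others were positive, such as Dusp1 at 0.30. A match of letters is a description of the sequence and not a bound site.

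The gene models that fell are in part copies of other genes. Gm8936, which the current RefSeq table names Rpl19-ps9, a pseudogene of the ribosomal protein gene Rpl19, was at 8.32, 8.12 and 8.21 in the TFA pools and at 7.27, 7.43 and 7.41 in the ASP + MSG + TFA pools, a log2 fold change of -0.85 (SE 0.10, adjusted p = 0.0124). Rpl19 itself was at -0.18. Gm4838, now named Rps19-ps13, was at -0.62 (adjusted p = 0.0241) and Rps19 at -0.08, Gm8109 was at -0.92 (adjusted p = 0.0222) and Gm12026 at -0.55 (adjusted p = 0.0474). The pools of each of the 4 models were apart, 3 of the 4 rested on a single probe set and Gm12026 on 2, and probes of such copies may also read RNA of the related genes, so their identity is uncertain. Without each array in turn, Gm8936 passed in 10 of 12 fits, Gm8109 in 9, Gm4838 in 7 and Gm12026 in 2. Gm8936 was lost without TFA pool 1 and without ASP + MSG + TFA pool 1, and Gm8109 also without TFA pool 2. Without a compared array, Gm4838 passed only when TFA pool 2 was left out. Gm12026 passed only in fits that kept all compared arrays. EG634650, now named Gbp11, a member of the guanylate-binding family that interferon induces, was at 8.68, 8.89 and 8.48 in the controls and at 7.69, 7.79 and 8.06 with both additives (log2 fold change -0.84, SE 0.12, adjusted p = 0.0222), lower at all 4 probe sets, and passed in 8 of 12 fits with 1 array left out. Without a compared array, EG634650 passed only when TFA pool 3 or ASP + MSG + TFA pool 3 was left out. Its relative Gbp3, chosen after its value was seen, was at -0.21, and probes shared among the family could mix their signals.

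Whether both additives together differed from each alone was asked directly. These contrasts share the ASP + MSG + TFA pools, and those of each additive against TFA share the controls. Myc was at -0.21 with MSG alone and at 0.38 with ASP alone against TFA (adjusted p = 0.966 and 0.530), and with both additives it was lower than with ASP alone (-2.23, adjusted p = 2.74e-04) and than with MSG alone (-1.64, adjusted p = 0.0117). Foxq1 (-0.82, adjusted p = 0.0107), Gadd45g (-0.92, adjusted p = 0.0415) and Phlda1 (-1.21, adjusted p = 0.0367) were lower with both additives than with ASP alone. Against MSG alone the same genes were at -0.64, -0.32 and -0.97 and did not pass, which does not show that they were equal. The copies Gm8936 and Gm4838 ran otherwise. For Gm8109, Gm12026 and EG634650 these contrasts are not given here. Gm8936 was at -0.98 with MSG and -0.88 with ASP alone (adjusted p = 0.00253 and 0.00533), and Gm4838 at -0.83 and -0.73 (adjusted p = 0.00253 and 0.00574), so that the TFA pools stood above all other pools.

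Genes that partner MYC and genes it is known to drive were read next. None of the 19 partners and antagonists reached the unadjusted threshold in either direction. The median was 0.01, the partner Max was at -0.14, the antagonist Mnt at 0.12 and the glucose-sensing relative Mlxipl at 0.16. Of 42 measured MYC targets of ribosome and nucleotide synthesis, 33 had a negative log2 fold change, 7 were lower at the unadjusted threshold and 0 higher, 0 passed the adjusted one, and the median was -0.07. Spermidine synthase (Srm) was at -0.34 (unadjusted p = 0.00360), the ribosome assembly factor Rrs1 at -0.49 and ornithine decarboxylase (Odc1) at -0.23. Of 61 cytosolic ribosomal protein genes, 49 were negative, 11 lower and 2 higher at the unadjusted threshold, with a median of -0.06. Rps18 was at -0.44 and Rpl14 at -0.51, while Rpl29 was at 0.37, and pseudogene copies of this family make single values uncertain.

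No gene passed in the upward direction. The largest positive log2 fold change of all genes was that of Cyp2b9, a cytochrome P450 that female liver expresses more than male liver and that the receptor CAR induces. It was at 8.04, 7.67 and 8.13 in the TFA pools and at 9.77, 9.70 and 10.96 in the ASP + MSG + TFA pools, a log2 fold change of 2.20 (SE 0.41, adjusted p = 0.104). All 7 probe sets were higher and the pools were apart by more than 1 log2 unit, but the spread among the ASP + MSG + TFA pools was wide (SD 0.71). Npnt, which codes for the basement membrane protein nephronectin, had the smallest p of the higher genes, at 6.02, 5.98 and 6.17 in the controls and at 6.63, 6.65 and 6.57 with both additives (log2 fold change 0.56, SE 0.10, adjusted p = 0.0877), with 14 of 16 probe sets higher. The others of small p were mostly genes of low intensity that liver is not known for, such as the milk protein gene Csn3 (0.53), Rnase9 (0.51), the bitter taste receptor Tas2r109 (0.41), Sema5b (0.43), the defensin Defb11 (0.40), the antimicrobial Camp (0.45), the kinesin Kif2c (0.39), the potassium channel subunit Kcne1 (0.44) and the muscle phosphorylase kinase subunit Phkg1 (0.41), along with Unc93a (0.61) and the vault RNA Vaultrc5 (0.40). Their adjusted p values were 0.104 to 0.171. Npnt was likewise of low intensity, below the log2 cut of 6.888 used for brighter genes.

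**Figure D4:**
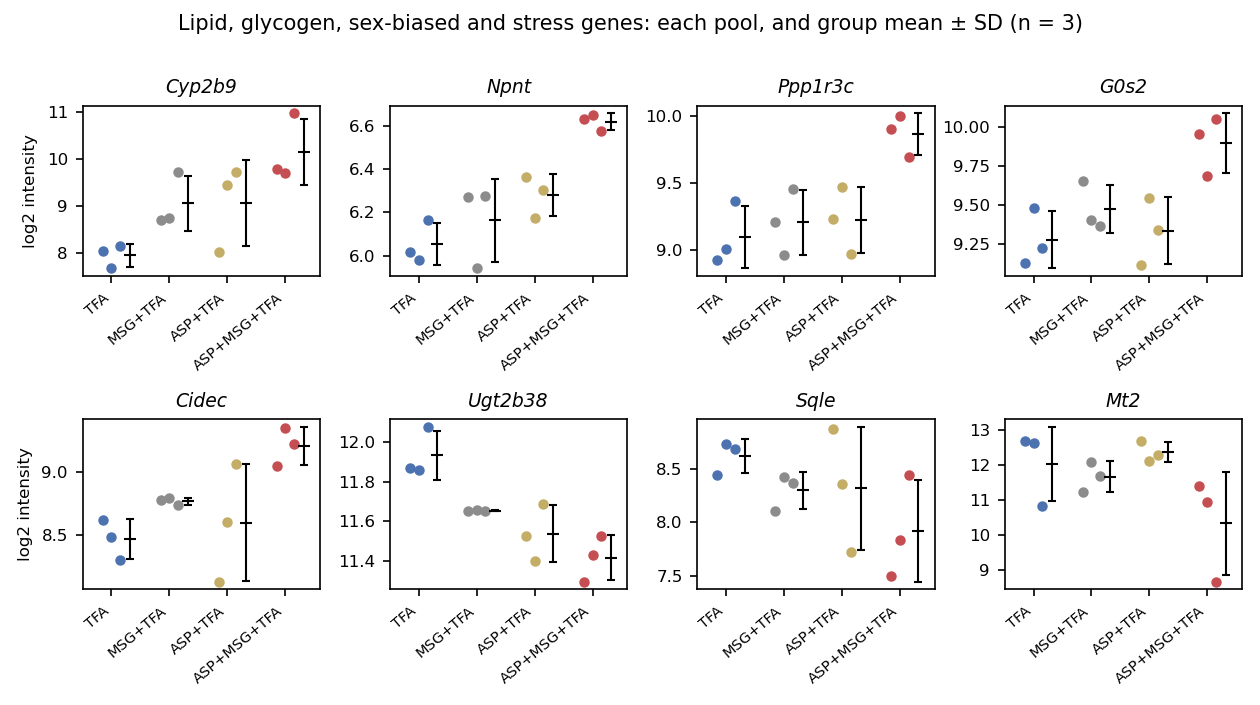
Log2 intensity (vertical axes) in each of the 12 pools, by diet (horizontal axes), of 8 genes, none of which passed the adjusted threshold. Besides the basement membrane gene Npnt, they are genes of lipid, glycogen, drug and metal metabolism. Coloured points are pools and black bars the group mean ± SD (n = 3). Cyp2b9, Npnt, Ppp1r3c, G0s2 and Cidec were higher and Ugt2b38 and Sqle lower in each ASP + MSG + TFA pool than in each TFA pool, although Sqle pool 3 reached 8.44, and the Mt2 pools overlapped.

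Targets of PPARalpha, the receptor that switches on fatty acid oxidation in fasting, were mostly on the higher side. Of 38 measured, 27 were positive, 10 were higher at the unadjusted threshold and 0 lower, and the median was 0.09. None passed the adjusted threshold. The median lay inside the range of -0.08 to 0.10 given above for all genes. The other 11 targets were negative, the lowest at -0.11. Every pool with both additives lay above every control pool for 12 of the 38, so the rise was not shared by the whole list. Cidec, a lipid droplet protein that enlarges droplets, was at 8.62, 8.49 and 8.31 in the TFA pools and at 9.05, 9.35 and 9.22 in the ASP + MSG + TFA pools (log2 fold change 0.73, SE 0.17, adjusted p = 0.207). The glucose-responsive gene Txnip was at 0.61, Pdk4, the kinase that turns pyruvate away from oxidation, at 0.39, the fatty acid hydroxylase Cyp4a14 at 0.54, the fatty acid transporter Cd36 at 0.37, the thioesterase Acot1 at 0.41 and the peroxisomal thiolase Acaa1b at 0.31. Their ASP + MSG + TFA pools were all above the TFA pools. The receptors and coregulators themselves had a median of -0.03, with 1 of 20 higher and 0 lower at the unadjusted threshold. Nrip1 was at 0.23, Pparg at 0.25 and Med1 at -0.13.

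Genes of fat storage were mostly positive too. In de novo lipogenesis, 15 of 23 were positive, 5 were higher and 1 lower at the unadjusted threshold, with a median of 0.11 that turned to -0.08 without ASP + MSG + TFA pool 3. Scd1, the desaturase that makes oleate, was at 13.77, 13.64 and 13.47 in the TFA pools and 14.03, 13.89 and 14.17 in the ASP + MSG + TFA pools (0.41), the lipid droplet lipase Pnpla3 was at 0.28, and the oxysterol receptor gene Nr1h3 (LXRalpha) was at -0.27. Of 25 lipid droplet and lipolysis genes, 20 were positive, 5 were higher and 1 lower, with a median of 0.09. That median too lay inside the range given above for all genes. G0s2, the inhibitor of the main triglyceride lipase, was at 9.13, 9.49 and 9.22 in the controls and at 9.96, 9.69 and 10.05 with both additives (0.62, SE 0.13, adjusted p = 0.165), endothelial lipase (Lipg) was at 0.48, and the droplet coat gene Plin4, chosen after its value was seen, at 0.56. Markers of adipocytes, several of which a fatty liver also makes, were likewise on the higher side. Of 13, 10 were positive and 3 higher at the unadjusted threshold, the median was 0.14, the mean of the list ran from 7.86 to 7.97 with both additives and from 7.64 to 7.76 in the controls, and Cfd (0.84) and Aqp7 (0.35) led it with Cidec. Fabp4 (-0.16), Lep (-0.08) and Slc2a4 (-0.05) were the negative members. Adipoq (0.09), Lipe (0.03) and Plin1 (0.02) were little above 0. The pools of these genes, chosen after their values were seen, overlapped, so the rise was not shared by the whole list. The part of adipocyte RNA in the lipid results was not tested.

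Lpl, lipoprotein lipase, went the other way. It was at 7.16, 7.42 and 7.19 in the TFA pools and at 6.52, 6.54 and 6.45 in the ASP + MSG + TFA pools, a log2 fold change of -0.76 (SE 0.13, adjusted p = 0.0780), with 13 of 15 probe sets lower. Muscle is a main site of Lpl, and the muscle markers given above were lower in the same pools. Their mean was also below every TFA pool with MSG alone (6.39, 5.94 and 5.95) and with ASP alone (5.91, 5.98 and 6.09). The part of muscle RNA in the Lpl value was not tested. The fit below cannot fully separate muscle RNA from the diet, because the muscle means did not overlap between the diets. Ttn (-0.98), Tnnc2 (-0.85) and Myh1 (-0.78) led the muscle list, of which 16 of 18 were lower at the unadjusted threshold. With the mean of the muscle markers in the model, Lpl was at -0.67 (adjusted p = 0.282).

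Mitochondrial beta-oxidation and the carnitine shuttle had 14 of 24 positive, 3 higher and 0 lower, with a median of 0.02. The brain-type and muscle-type carnitine palmitoyltransferases Cpt1c (0.31) and Cpt1b (0.79) and carnitine acetyltransferase (Crat, 0.28) were the 3. The pools of Cpt1b, read by 2 probe sets, overlapped. Cpt1c was of low intensity, with a mean of 5.75 in the controls and 6.06 with both additives. Among 16 ketogenesis and fasting genes, 2 were higher, Txnip and Pdk4, the median was 0.05, and Acat1, an enzyme of ketone body synthesis, was at 0.13. None of 18 triglyceride synthesis genes reached the unadjusted threshold, and Agpat1 was at -0.16, Gpat2 at 0.13 and Lpin3 at -0.13, with a median of 0.01.

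Cholesterol synthesis stood on the lower side. Of 22 measured genes of sterol synthesis and uptake, 19 were negative, 7 were lower at the unadjusted threshold and 0 higher, 0 passed the adjusted one, and the median was -0.27. Sqle, squalene epoxidase, was at 8.44, 8.73 and 8.68 in the TFA pools and at 7.50, 7.83 and 8.44 in the ASP + MSG + TFA pools (-0.70, SE 0.25). Fdft1, squalene synthase, was at 10.98, 11.14 and 11.07 against 10.30, 10.25 and 10.97 (-0.56, unadjusted p = 0.00759), and the sterol enzymes Hsd17b7 (-0.41), Cyp51 (-0.46) and Sc4mol (-0.56) were likewise lower in every pool with both additives. Pool 3 of the ASP + MSG + TFA diet lay near the controls for these genes. The mean of the list was 9.50, 9.62 and 9.59 in the TFA pools and 9.14, 9.22 and 9.58 in the ASP + MSG + TFA pools. It was 9.31, 9.50 and 9.38 with MSG alone and 9.68, 9.44 and 9.08 with ASP alone. The pools of each additive alone thus overlapped those with both. Srebf2, the gene of the factor that drives the sterol genes, was at 0.02. Sqle and Sc4mol were chosen after their values were seen.

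Bile acid synthesis and transport had 18 of 27 positive, 2 higher and 1 lower at the unadjusted threshold, with a median of 0.05. The export pump genes Abcc3 and Abcb4 were at 0.31 and 0.16. Cyp7b1, the oxysterol hydroxylase of the alternative bile acid pathway, was at 11.42, 11.68 and 11.60 in the TFA pools and at 10.92, 11.00 and 10.87 in the ASP + MSG + TFA pools (-0.64, SE 0.15, adjusted p = 0.213). Of 23 apolipoprotein and lipoprotein assembly genes, 1 was higher and 2 lower, with a median of 0.02, and Apoa4 was at -0.33, the sorting receptor Sort1 at -0.33 and the phospholipid transfer protein Pltp at 0.47. In the LDL receptor family, Vldlr was at 0.32, Lrp1 at 0.24 and Lrp5 at 0.14, 1 of 13 was higher and the median was 0.03.

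The list of 20 glycogen metabolism genes had a median of 0.00, with 2 higher and 0 lower at the unadjusted threshold, and its smallest p values were those of subunits that target a phosphatase to glycogen. Ppp1r3c was at 8.92, 9.01 and 9.36 in the TFA pools and at 9.90, 10.00 and 9.70 in the ASP + MSG + TFA pools (0.77, SE 0.15, adjusted p = 0.133). Ppp1r3g, read by 1 probe set, was at 8.33, 7.97 and 7.81 against 8.72, 8.35 and 9.00 (0.65), and Ppp1r3b was at 0.20. The pools of these 3 genes were apart, and those of Ppp1r3d, the remaining such subunit measured in the list (0.04, chosen after its value was seen), overlapped. None of the 4 passed the adjusted threshold. Among 26 gluconeogenesis and insulin signalling genes, 2 were higher and 1 lower, with a median of -0.02. The glucokinase regulator Gckr and pyruvate carboxylase (Pcx) were at 0.21 each and Igfbp2, a binding protein of insulin-like growth factors, at -0.23.

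Genes that male liver expresses more than female liver were mostly on the lower side. Of 25 measured, 20 were negative, 10 were lower and 1 higher at the unadjusted threshold, and the median was -0.14. None passed the adjusted threshold. Ugt2b38, a glucuronosyltransferase, was at 11.87, 11.86 and 12.08 in the TFA pools and at 11.30, 11.43 and 11.53 in the ASP + MSG + TFA pools (-0.51, SE 0.10, adjusted p = 0.104). Nudt7, a peroxisomal coenzyme A hydrolase, was at 11.46, 11.81 and 11.52 against 10.66, 10.78 and 11.20 (-0.72), and Selenbp2, chosen after its value was seen, at 11.11, 11.65 and 11.57 against 10.69, 10.56 and 10.06 (-1.01). The major urinary protein gene Mup20, also chosen afterwards, was at 0.01, and just below 0 with each array centred on its median. Of 19 genes that female liver expresses more, 13 were positive, 4 were higher and 0 lower, with a median of 0.05, and Cyp2b9, Cyp2b13 (0.33) and Cyp4a14 led them. All animals were male.

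Targets of the drug-sensing receptors CAR and PXR overlap with these lists. Of 36, 26 were positive, 7 were higher and 1 lower at the unadjusted threshold, with a median of 0.06. Cyp2c38 was at 11.43, 10.98 and 11.25 in the TFA pools and at 11.99, 11.95 and 11.90 in the ASP + MSG + TFA pools (0.73, adjusted p = 0.231). The haem synthesis enzyme Alas1 was at 11.84, 11.95 and 11.81 against 11.33, 11.29 and 11.67 (-0.44, SE 0.10, adjusted p = 0.183). Of 31 genes of the NRF2 antioxidant response, 6 were higher and 1 lower, with a median of 0.02. The glutathione transferase Gstm1 was at 0.39 and Abcc3 at 0.31, and haem oxygenase (Hmox1) was at -0.33.

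The unfolded protein and integrated stress responses had 27 of 32 genes negative and a median of -0.17, but 3 were lower and 1 higher at the unadjusted threshold, against 4.38% and 5.68% of all genes. Xbp1, the factor that is spliced under stress of the endoplasmic reticulum, was at 10.50, 10.73 and 10.62 in the TFA pools and at 10.22, 10.30 and 10.29 in the ASP + MSG + TFA pools (-0.35, SE 0.09, adjusted p = 0.227). Asns, asparagine synthetase, was at 7.54, 7.26 and 7.50 against 6.58, 7.21 and 6.04 (-0.82), and Sesn2 was at 0.29. The chaperone genes Creld2 (9.80, 10.27 and 10.10 against 8.84, 9.82 and 9.59) and Hspa5 (11.95, 12.26 and 12.30 against 11.50, 12.17 and 12.00) and the degradation factor Derl3 (7.61, 8.29 and 7.84 against 6.65, 7.76 and 7.45), chosen after their values were seen, were at -0.64, -0.28 and -0.63. ASP + MSG + TFA pool 1 was the lowest of the 6 for all 3 genes, and the other pools overlapped.

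These chaperone genes are known for an ER stress response element in their start regions, which is why they are shown. The element searched was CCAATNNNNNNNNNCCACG on both strands, in capitals below, in RefSeq start regions of GRCm38.p6. It began 126, 156 and 65 bases before the start of Creld2, Derl3 and Hspa5.
Creld2, chr15:88819396-88819695, + strand: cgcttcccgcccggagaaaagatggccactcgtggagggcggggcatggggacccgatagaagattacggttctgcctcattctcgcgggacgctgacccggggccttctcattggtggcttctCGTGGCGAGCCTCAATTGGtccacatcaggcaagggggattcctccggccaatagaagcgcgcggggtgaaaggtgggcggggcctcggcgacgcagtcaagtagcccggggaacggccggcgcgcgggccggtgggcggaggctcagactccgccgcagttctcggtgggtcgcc
Derl3, chr10:75893148-75893447, + strand: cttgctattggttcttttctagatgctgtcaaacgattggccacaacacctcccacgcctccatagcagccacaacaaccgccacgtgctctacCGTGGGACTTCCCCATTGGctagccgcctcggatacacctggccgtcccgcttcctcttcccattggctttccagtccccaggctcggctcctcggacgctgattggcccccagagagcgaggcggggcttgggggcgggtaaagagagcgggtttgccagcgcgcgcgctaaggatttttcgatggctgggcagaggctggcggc
Hspa5, chr2:34771840-34772139, + strand: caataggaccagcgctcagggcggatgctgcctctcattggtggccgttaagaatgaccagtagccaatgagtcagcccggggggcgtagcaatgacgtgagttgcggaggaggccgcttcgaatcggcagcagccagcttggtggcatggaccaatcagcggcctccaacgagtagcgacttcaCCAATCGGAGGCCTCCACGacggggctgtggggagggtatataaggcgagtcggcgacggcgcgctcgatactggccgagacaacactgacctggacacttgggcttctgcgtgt
The element was found in 9 of the 28 genes of the list with a start region (32.1%), against 37 of 27025 genes (0.137%). All 9 had a negative log2 fold change, with a median of -0.22, and the 19 without the element had a median of -0.14. No test was made of this difference. In the sterol list, a CCAAT box (CCAAT, both strands) was found in 18 of 18 genes with a start region, against 41.1% of all genes, and a sterol response element (TCACNCCAC) in 1 of 18, against 1.44%.

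Heat shock genes had 18 of 26 negative, 2 lower and 1 higher at the unadjusted threshold, with a median of -0.06. Cryab was at -0.25, Dnajb1 at -0.57 and the collagen chaperone Serpinh1 at 0.23. Among 28 genes of p53 and its targets, 3 were lower, Plk3, Btg2 and Mdm2 (-0.30, chosen after its value was seen), and 1 was higher, Sesn2, with a median of 0.00. Cell cycle and replication genes had a median of 0.03, with 2 higher, Cdc20 (0.25) and Cdc2a (0.23), and 1 lower, Ccnd2 (-0.20), of 37.

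Acute phase proteins, which hepatocytes secrete in inflammation, had 26 of 32 negative and a median of -0.23, with 6 lower and 1 higher at the unadjusted threshold. The metallothionein Mt2 was at 12.67, 12.62 and 10.82 in the TFA pools and at 11.39, 10.94 and 8.67 in the ASP + MSG + TFA pools. The mean difference of -1.70 came with an SD above 1 log2 unit in each diet, and the pools overlapped. Steap4, a metal reductase, was at 10.36, 10.33 and 10.02 against 9.70, 9.86 and 9.91 (-0.42, adjusted p = 0.331), and Orm1 was at -0.37. Serum amyloid genes ran both ways, with Saa1 at 0.66 and Saa2 at -1.27, chosen after their values were seen, and their sequences are near-identical.

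Genes of signalling upstream of the acute phase and of growth were mostly negative. Their median lay inside the range of -0.08 to 0.10 given above for all genes, and signalling itself was not measured. Of 24 genes of HGF, interleukin-6 and STAT3 signalling, 18 were negative, 4 were lower and 0 higher at the unadjusted threshold, with a median of -0.05. The STAT5-induced inhibitor Cish was at 6.70, 6.88 and 6.81 in the TFA pools and at 6.01, 5.83 and 6.58 in the ASP + MSG + TFA pools (-0.66, SE 0.15, adjusted p = 0.207), and the receptors Lifr and Egfr were at -0.38 and -0.33. Hepatocyte transcription factors had 4 of 25 lower and 0 higher, with a median of 0.03. Onecut1 was at 8.81, 9.22 and 9.25 against 8.26, 8.28 and 8.84 (-0.63, SE 0.15, adjusted p = 0.217), where pool 3 of the ASP + MSG + TFA diet lay above TFA pool 1, and Foxa1 was at -0.35. Of 29 interferon-stimulated genes, 22 were negative, 5 were lower and 0 higher, with a median of -0.13, and Oasl2, Irf9 and Ifi35 were at -0.30, -0.27 and -0.22.

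Markers of Kupffer cells and macrophages were on the lower side, as the inflammatory lists were. Of 15, 14 were negative, 4 were lower and 0 higher at the unadjusted threshold, with a median of -0.20. Their mean was 8.10, 8.15 and 8.11 in the TFA pools and 7.85, 7.85 and 8.02 in the ASP + MSG + TFA pools. Lyz2, lysozyme, was at 9.99, 10.24 and 10.32 against 9.68, 9.68 and 9.69 (-0.50, SE 0.10, adjusted p = 0.108), Cd5l was at -0.44 and the complement receptor Vsig4 at -0.34. Clec4f, the positive member, was at 0.06, and Marco and Itgam were at -0.05 each. The pools of these genes, chosen after their values were seen, overlapped. The part of Kupffer cells and macrophages in the inflammatory lists was not tested. The NADPH oxidase subunits of phagocytes, Cyba (-0.37) and Cybb (-0.24), were the 2 genes lower at the unadjusted threshold of 16 oxidase genes, whose median was 0.02, and Duox2 was at 0.14.

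The fates of the additives themselves were also covered. Aspartame is split into aspartate, phenylalanine and methanol, and MSG gives glutamate. Of 36 glutamate and aspartate metabolism genes, 3 were lower and 1 higher at the unadjusted threshold, with a median of -0.01. The mitochondrial aspartate-glutamate carrier Slc25a12 was at -0.37 (adjusted p = 0.309), Asns at -0.82 and Gclc, the glutathione synthesis enzyme, at 0.20. None of 20 phenylalanine and tyrosine genes (median 0.01, with Pcbd2 at 0.16, Pts at -0.15 and Gch1 at -0.15) and none of 21 methanol, formaldehyde and formate genes (median 0.04, with Esd at 0.20, Adh1 at 0.15 and Gldc at 0.24) reached it. Aadat, which transaminates alpha-aminoadipate and kynurenine with glutamate, had the smallest p among amino acid enzymes, at 11.12, 11.25 and 11.02 in the TFA pools and 10.60, 10.60 and 10.59 in the ASP + MSG + TFA pools (-0.53, SE 0.10, adjusted p = 0.104), lower at all 15 probe sets.

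In the urea cycle, 1 of 13 was lower, ornithine aminotransferase (Oat, -0.25), with the ammonia carrier Rhbg at -0.33 and Otc at -0.10 and a median of 0.00. The citric acid cycle had 1 of 25 higher, Pcx, with Idh2 at 0.18 and Pdhx at -0.18 and a median of 0.01. Oxidative phosphorylation had 49 of 74 negative, 3 lower (Ndufs5 at -0.19, Atp5k at -0.21 and Ndufa4 at -0.19) and 0 higher, with a median of -0.04. Amino acid transporters had 4 of 37 higher and 1 lower, with a median of 0.01, led by Slc38a1 (0.31), Slc7a9 (0.32) and Slc7a6 (0.25). Receptors for glutamate, taste and GABA, all of low intensity in liver, had 26 of 32 positive, 2 higher and 1 lower, with a median of 0.07. The metabotropic receptor Grm8 was at -0.44 (adjusted p = 0.156), the sweet and umami receptor subunit Tas1r3 at 0.31 and Grm5 at 0.28.

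The remaining lists lay near the background. Clock genes had 1 of 24 lower, Dbp (-0.73), with Arntl at 0.35 and Npas2 at 0.25 and a median of -0.04. Vessel growth and Notch genes had 2 of 31 higher, Notch1 (0.32) and Hes1 (0.20), and 1 lower, Nrp1 (-0.32), with a median of 0.03, and collagens and laminins 2 of 26 higher, Npnt and Lamc1 (0.22), and 1 lower, Col4a1 (-0.22), with a median of 0.04. Others among the 15 genes of smallest p on the lower side were the endothelial gene Apold1 (-0.51, adjusted p = 0.0780), the selenoprotein gene Selk (8.53, 8.52 and 8.54 against 8.05, 7.91 and 8.04, adjusted p = 0.0884) and the depalmitoylase gene Fam108b (-0.46, adjusted p = 0.113).

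Of the other markers, 10 of 12 lymphocyte markers were positive (median 0.13, with Cd79a at 0.25, Gzma at 0.37 and Ptprc at -0.17) and 1 was higher at the unadjusted threshold. Cholangiocyte markers had 1 of 10 higher (median 0.04, with Sctr at 0.29, Spp1 at -0.32 and Epcam at 0.23). None of the sinusoidal endothelial (14, with Lyve1 at -0.27, Emcn at -0.14 and Vwf at 0.13), stellate cell (14, with Des at -0.27, Lum at -0.20 and Acta2 at -0.25), erythroid (7, with Hemgn at 0.23, Hbb-b1 at 0.20 and Ermap at 0.15) or gut epithelial markers (10, with Fabp2 at 0.18, 2010204N08Rik at 0.14 and Guca2a at 0.26) reached it. Of 18 hepatocyte markers, Serpina1a, a member of a family of close copies, was at -0.44, Hal at 0.23 and Cyp1a2 at -0.14, with a median of -0.01. Among acinar markers, Prss1 was at -0.49, Cela1 at 0.40 and Pnlip at 0.75.

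**Figure D5:**
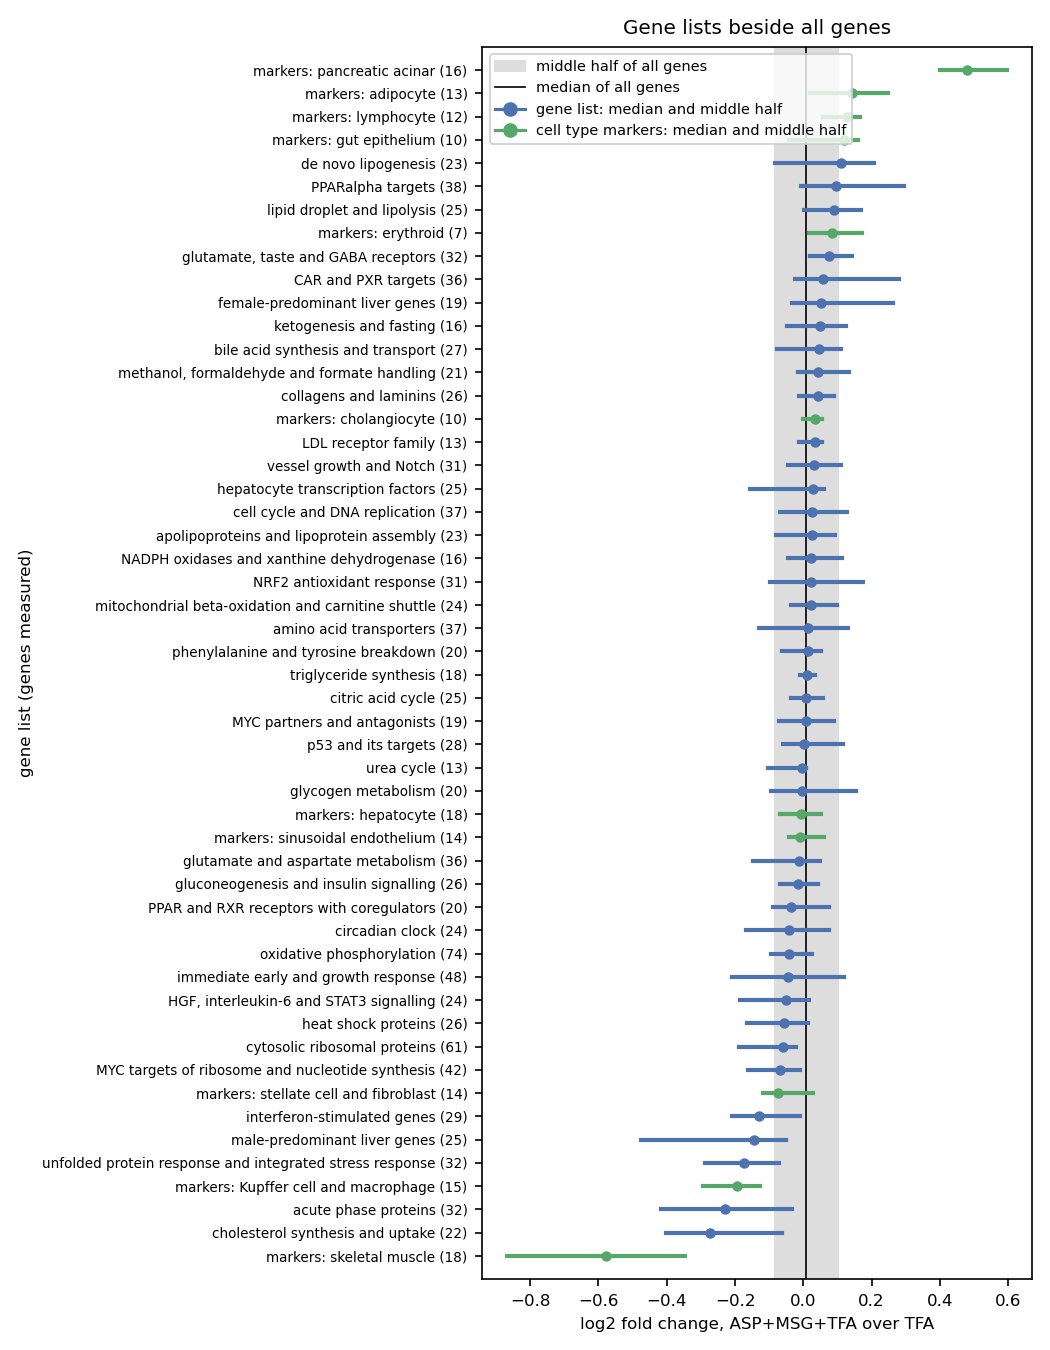
Median (points) and middle 50% (lines) of the log2 fold change of ASP + MSG + TFA over TFA (horizontal axis) for each gene list, with the number of genes measured in brackets. The grey band and black line give the same for all 20422 genes. Sterol synthesis (-0.27), acute phase (-0.23) and muscle markers (-0.58) had the lowest medians, and acinar markers (0.48) the highest.

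The genes that the study names for liver with both additives were chosen from these same arrays, so their direction is not independent evidence. Of 35, 34 were measured, 27 were positive, 9 were higher and 1 lower at the unadjusted threshold and 0 passed the adjusted one, with a median of 0.08, and 1 was not analysed here. The study names some of them as higher and others as lower, so these counts do not measure how its directions were met. The 10 were Onecut1 on the lower side and Cpt1c, Lipg, Notch1, Acaa1b, Cd36, Cyp4a14, Acot1, Acacb (0.28) and Abcb4 on the higher. Abcd2 (0.68), Hspg2 (0.15), Nr1i3 (0.17), Hdac5 (0.16), Nf1 (0.10), Nox1 (0.09) and Ppard (0.08) were positive without passing, as were Ppara (0.07), Plxnd1 (0.07), Lrp4 (0.06), Mef2d (0.05), Cyp4a10 (0.05), Creb1 (0.04), Lrp2 (0.02), Xdh (0.01) and Pld2 (0.01), of which Xdh and Pld2 turned just negative when each array was centred on its median. Hgf (-0.18), Stat3 (-0.20), Abca1 (-0.10), Rock1 (-0.08), Slc4a2 (-0.08) and Ppargc1a (-0.05) were negative.

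At the level of single probe sets, with an adjusted p under 0.05 and a difference of 1.4-fold, 1 of 212138 rose (0.000471%) and 2 fell (0.000943%). At an unadjusted p under 0.05, 3.74% of probe sets were higher and 4.09% lower. The probe set that rose lies in Slc6a18, an amino acid transporter gene of kidney, at 5.64, 5.37 and 5.43 in the TFA pools and at 7.32, 7.11 and 7.12 in the ASP + MSG + TFA pools (log2 fold change 1.70, adjusted p = 0.0429). It was at 6.39, 6.37 and 6.56 with MSG alone and at 7.30, 7.28 and 7.61 with ASP alone, so that the pools of all 3 diets with an additive lay above the controls. The gene as a whole ran from 5.31 to 5.38 with both additives and from 5.12 to 5.19 in the controls. Both that fell lie in Ttn, the giant muscle protein titin, at -2.70 and -2.29 (adjusted p = 0.0477 and 0.0429). They were at 7.72 to 8.03 and 6.84 to 7.36 in the controls, and in the pools with MSG or ASP alone at up to 5.56 and up to 5.66, so that again the TFA pools stood apart from all others. The muscle markers were also highest in the TFA pools, and 288 of the 320 Ttn probe sets were lower.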

How the data were processed

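Liver RNA, pooled from 5 mice for each array, was hybridised to 12 Affymetrix Mouse Gene 1.0 ST arrays, 3 for each of 4 diets. The authors normalized the arrays in Partek with GCRMA and quantile normalization, as their methods and processing notes say, and deposited linear intensity values per probe set. The genome build is not given in the sources used here. The log2 of each deposited intensity was taken here, and a gene value was the mean over probe sets assigned to exactly 1 symbol (212138 of them, with 4672 of several symbols and 24766 of none left out). The scale compares pools within a gene and not genes with each other, and precision is limited by how few arrays there are.

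ASP + MSG + TFA was set against TFA with limma 3.58.1 in R 4.3.3 (lmFit, contrasts and eBayes), in 1 model over all 12 arrays, with Benjamini-Hochberg adjustment over all 20422 genes. Calls on genes used an adjusted p below 0.05, and a probe set also had to differ by 1.4-fold. Standard errors (SE), 95% intervals and two-sided p-values come from this fit. Separate pools may share litters, so that the p-values measure the spread between these pools. Scripts were tested on simulated data. Members, gene lists and alternatives were chosen with earlier results of these data known. Named are all called genes, in each direction the 15 properly named genes of smallest p whose pools do not overlap, the 3 of smallest p in each list and all measured genes that the study names for liver with both additives. Genes chosen otherwise are said to be. Alternatives were other scalings, summaries, models, covariates and left-out arrays. Start regions of genes (250 bases before and 50 after) came from RefSeq in GRCm38.p6, and were searched for 10 motifs in Python 3.11.15.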

Additional observations from a re-analysis of the deposited data

Results flagged for a closer look

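For 3 genes the response to both additives differed from the sum of the responses to each alone, by a test of the interaction in the same limma fit. The interaction of ASP and MSG was -2.03 log2 units for Myc (adjusted p = 0.0151), where neither additive alone passed and both together gave a fall. It was 1.01 for Gm8936 (adjusted p = 0.0215) and 0.94 for Gm4838 (adjusted p = 0.0151), which fell with each additive alone as well as with both. Both additives together differed from MSG alone and ASP alone by 0.13 and 0.03 for Gm8936, which did not pass (adjusted p = 0.873 and 0.958).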

How the results depend on the processing

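The count of 8 genes that fell was 10 with each array centred on its median and with further quantile normalization, 11 over brighter genes only, 12 with limma's trend and robust variance and 10 with the replicate number as a block. It was 1 with the median of probe sets, 3 with only the 6 arrays of both diets, 0 with an ordinary linear model without moderation, 47 with array weights (which put a weight of 3.33 on ASP + TFA pool 2 and 0.355 on pool 3), 4 without the 3 acinar-richest pools (a fit with 1 ASP + MSG + TFA pool left, assumed to vary like the other groups), 7 with the acinar and 0 with the muscle markers as a covariate, and 1 to 13 without each array in turn (1 without TFA replicate 1 or without ASP + MSG + TFA replicate 1). The count of 0 genes that rose was 29 with array weights, 4 with the replicate block, 5 without the 3 acinar-rich pools, 1 with the muscle covariate and 0 to 3 without each array. With the block these were Cyp2b9, Lce3f, Olfr1496 and Olfr92, and Lpl and Phlda1 fell besides the 8. The gene called with the muscle covariate was Unc93a, in a fit that cannot fully separate muscle RNA from the diet. All 8 genes that fell stayed called with centring, further quantile normalization, trend and robust variance, array weights and the block. The 1 probe set that rose and the 2 that fell were 0 and 0 with the 6 arrays alone and 0 and 0 with the block, and 0 to 1 and 0 to 3 without each array. Adding the 1.4-fold threshold for genes or dropping it for probe sets changed no count.

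Pools with the same number in both diets did not deviate together over all genes (correlations of 0.0283, 0.0713 and -0.025). Such values cannot exclude a batch that touches only some genes, and the other diets were not compared in this way. Of 5191 refits of 219 named genes, 4997 kept direction and side of the threshold, 62 passed it anew, 75 no longer passed and 57 changed sign. The sign changed with the median of probe sets for Nrip1 -0.016, Nr1h3 0.011, Lpin3 0.12, Pts 0.025, Otc 0.048, Cryab 0.025, Nf1 -0.014, Creb1 -0.13, Pld2 -0.15 and Mup20 -0.058, with the muscle covariate for Pparg -0.036, Gldc -0.014, Idh2 -0.056, Lrp1 -0.086, Lrp5 -0.27, Hdac5 -0.13, Nf1 -0.089, Ppard -0.064, Ppara -0.15, Lrp4 -0.0065, Plxnd1 -0.17, Mef2d -0.15, Creb1 -0.077, Srebf2 -0.22, Xdh -0.19, Gbp3 0.018, Mup20 -0.0036 and Ppp1r3d -0.35, without the acinar-rich pools for Cela1 -0.20, Pnlip -0.65, Nox1 -0.0086 and Lrp2 -0.010 (the choice of pools fixes this for the acinar genes Cela1 and Pnlip), with the acinar covariate for Lrp2 -0.0027, with array weights for Creb1 -0.018, Srebf2 -0.018, Pld2 -0.073 and Ppp1r3d -0.049 and with centring for Xdh -0.0044, Pld2 -0.0033 and Mup20 -0.0040. Without each array in turn the range crossed 0 for Creb1 -0.0077 to 0.11, Lrp2 -0.011 to 0.058, Mef2d -0.020 to 0.10, Nox1 -0.018 to 0.16, Pld2 -0.061 to 0.10, Ppara -0.021 to 0.20, Ppargc1a -0.13 to 0.055, Ppp1r3d -0.23 to 0.19, Srebf2 -0.024 to 0.075 and Xdh -0.041 to 0.10. For the others the cause was not tested. List medians stayed within the pool spread in 487 of the refits and moved past it in 43. With 3 pools a diet, the typical 95% interval spanned 0.22 log2 units on either side, and dim genes lie near the background of the arrays.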
